A study of Mus musculus with 2 samples.

Results

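Acute phase genes of the serum amyloid A (Saa), orosomucoid (Orm) and pentraxin families, together with the lipopolysaccharide-binding protein gene Lbp, were examined in fetal mouse liver. The set holds 10 genes (Saa1, Saa2, Saa3, Saa4, Orm1, Orm2, Orm3, Crp, Apcs and Lbp), defined by symbol and not by a threshold on their values, of 43346 mouse genes measured. Earlier results of these data were known when the set was chosen. The 10 symbols each matched 1 gene identifier. The samples were 2 libraries of poly(A)+ RNA from C57BL/6J liver at embryonic day 18, numbered biological replicates 1 and 2 of 1 group. The labels give pooled littermates of both sexes and name no treatment. The levels of Xist and Ddx3y given below did not show both sexes in either library. RNA above 200 nt was kept and read as stranded pairs, with spike-in RNAs added. With 1 group there was no condition to contrast. The libraries were compared with each other, with 1 library on each side, and no p-value is given.

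The acute phase response is the rapid change in plasma protein production by hepatocytes after infection or injury, driven mainly by interleukin 6 and interleukin 1. In the adult mouse, Saa1, Saa2 and the orosomucoids are induced strongly, and serum amyloid P (the product of Apcs) is the main pentraxin that responds. C-reactive protein, the product of Crp, is a weak responder in the mouse although it is the classic marker in man. Near birth the liver both secretes plasma proteins and produces blood cells, so myeloid cells that can themselves express some of these genes lie among the hepatocytes.

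Mouse genes held 159127988 expected counts in replicate 1 and 136904873 in replicate 2. All 10 hepatocyte markers examined were present, from Hnf4a at 59.8 and 66.9 TPM (a transcript abundance corrected for length, with the same sum in every library) to Alb at 75317 and 75756 TPM in replicates 1 and 2, as the liver label requires. The libraries differed in other tissues and in sex-linked genes. The 10 pancreatic acinar markers summed to 68.9 TPM in replicate 1 and 1.33 TPM in replicate 2. Although both samples are labelled as pooled males and females, Xist was at 99.1 and 0.02 TPM and Ddx3y at 0 and 13.6 TPM in replicates 1 and 2; these genes were chosen after their values were seen. The 12 neutrophil markers summed to 9732 and 13928 TPM, and 12 of 12 were higher in replicate 2. The 12 macrophage and Kupffer cell markers summed to 1098 and 1179 TPM.

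The 10 genes fell into 3 ranges of level. Apcs, Crp and Lbp stood above 100 TPM, Saa3, Saa4 and Orm1 lay between 2 and 20 TPM, and Saa1, Saa2, Orm2 and Orm3 had between 0 and 4 counts in each library. At 1 TPM or more in both libraries, 6 of 10 were detected, as were 28.4% of all mouse genes. The 10 genes together took 0.141% of all TPM in replicate 1 and 0.130% in replicate 2 (mean 0.136% ± 0.00776, SD, n = 2). Apcs, Crp and Lbp held 97.6% and 97.4% of that sum, and Apcs alone held 72.5% and 69.6%. Because these are bulk samples, fewer cells of a type and less RNA per cell cannot be told apart in any level given here.

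**Figure D1:**
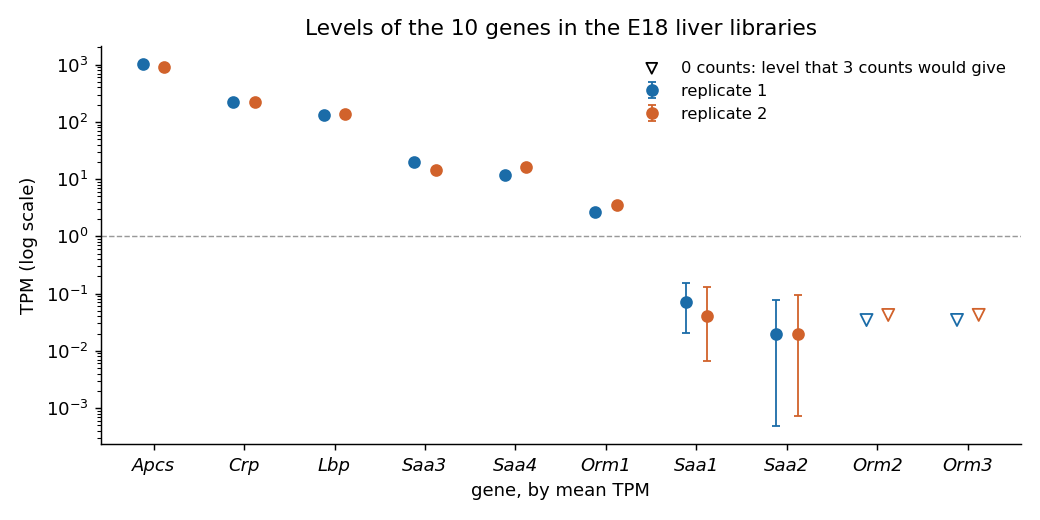
TPM of the 10 genes in replicate 1 (blue) and replicate 2 (orange) on a log axis, ordered by mean TPM. Bars are the deposited credibility intervals, open triangles mark the level that 3 counts would give where a library had 0 counts, and the dashed line is 1 TPM. Apcs, Crp and Lbp sit above 100 TPM and Saa1, Saa2, Orm2 and Orm3 below 0.1 TPM in both libraries.

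The pentraxins were the highest members. Pentraxins are secreted pattern-recognition proteins built as rings of identical subunits that bind calcium and phosphorylated or sugar ligands. Apcs (ENSMUSG00000026542.6, mm10 chromosome 1, 172893961 to 172895041, minus strand, 2 exons) encodes serum amyloid P component, which binds amyloid fibrils and chromatin. Its level was 1025 TPM in replicate 1 and 906 TPM in replicate 2, from 120429 and 87324 expected counts. Apcs ranked 93rd by mean TPM among 21474 protein-coding genes. Crp (ENSMUSG00000037942.5, chromosome 1, 172698055 to 172833031, plus strand) encodes C-reactive protein, which binds phosphocholine. Crp stood at 223 TPM in replicate 1 and 226 TPM in replicate 2, from 51370 and 42881 counts, at rank 344. The deposited credibility intervals of TPM, whose level is not given in the sources used here, ran from 220 to 224 and from 223 to 227. Apcs therefore exceeded Crp 4.59-fold in replicate 1 and 4.01-fold in replicate 2 (mean ratio 4.30 ± 0.408, SD, n = 2).

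Apcs and Crp are adjacent protein-coding genes on chromosome 1, on opposite strands. From the end of the main transcript Crp-201 to Apcs there are 193999 bp, and from the end of the long transcript Crp-202, which held 0.24% of the TPM of Crp, 60930 bp. Other annotated genes lie between, among them Gm24817 (0 counts in both libraries) and 9430083B18Rik (3 and 9 counts). The next protein-coding gene before Crp is Dusp23, a phosphatase gene, at 7.69 and 9.20 TPM. Beyond Apcs lies the olfactory receptor gene Olfr16 at 1.12 and 1.10 TPM. Apcs and Crp stood well above both of these neighbours in each library. Their coding sequences matched at 66.5% of 639 aligned bases and shared no window of 1 read length, so full-length reads of the pair can be told apart.

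None of the 8 other pentraxin genes reached a mean of 1 TPM. Svep1, which encodes a large extracellular matrix protein with a pentraxin domain, was the highest of them at 0.28 and 0.38 TPM. Ptx3, the long pentraxin made by myeloid and stromal cells in inflammation, had 6 and 13 counts, and the mucosal pentraxin gene Mptx2 had 0 in both libraries.

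Lbp (ENSMUSG00000016024.5, chromosome 2, 158306493 to 158332852, plus strand, 15 exons in its longest transcript) encodes a secreted protein that carries bacterial lipopolysaccharide to CD14 and the TLR4 receptor. Its level was 131 TPM in replicate 1 and 137 TPM in replicate 2, from 35440 and 31603 counts, at rank 571. Crp exceeded Lbp 1.70-fold and 1.65-fold, and the deposited intervals of these genes did not overlap in either library. Bpi, the adjacent gene and a structural relative that binds the same ligand in neutrophil granules, had 4 counts in replicate 1 and 1 in replicate 2. Lbp and Bpi lie 21962 bp apart on the same strand, so these neighbouring relatives stood far apart in level.

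The genes that act with Lbp in sensing lipopolysaccharide were measured at lower levels. Cd14, the co-receptor, stood at 2.06 TPM in replicate 1 and 2.85 TPM in replicate 2. Tlr4, the signalling receptor, was at 1.20 and 1.10 TPM, and its partner Ly96 at 5.52 and 5.35 TPM. Of 16 partner genes found in the tables (receptors and carriers for these proteins), 15 reached a mean of 1 TPM, as did 29.0% of all mouse genes, and the median of the 16 was 11.2 TPM. The highest were Fcer1g, the shared Fc receptor gamma chain, at 120 and 129 TPM, and Scarb1, a lipoprotein receptor that also binds serum amyloid A, at 112 and 128 TPM. Fpr2, the formyl peptide receptor that binds serum amyloid A, was at 17.2 and 22.4 TPM. The Fc receptor genes Fcgr3 (34.5 and 37.0 TPM), Fcgr2b (13.3 and 15.1 TPM) and Fcgr1 (8.05 and 6.17 TPM), whose products bind pentraxins, were all detected.

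Serum amyloid A proteins are small apolipoproteins that associate with high-density lipoprotein. The Saa genes lie together on mm10 chromosome 7 in the order Saa3, Saa4, Saa1, Saa2. Saa3 and Saa4 held nearly all of the family's RNA, with a sum of 31.4 TPM in replicate 1, where the family summed to 31.5 TPM, and of 30.2 TPM in replicate 2. Saa3 (ENSMUSG00000040026.7, 46711998 to 46715700, minus strand), the form known from macrophages and adipocytes as well as liver, was at 19.7 TPM in replicate 1 and 14.2 TPM in replicate 2, from 968 and 560 counts. Saa4 (ENSMUSG00000040017.7, 46727998 to 46732603, minus strand), the constitutive form, was at 11.7 and 16.0 TPM, from 3273 and 3697 counts. Their order turned between the libraries, with Saa3 to Saa4 ratios of 1.68 in replicate 1 and 0.886 in replicate 2. Thus Saa3 and Saa4 could not be ranked against each other.

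Saa1 and Saa2, which are strongly inducible in the adult, were almost absent. Saa1 (ENSMUSG00000074115.3, 46740497 to 46742980, minus strand) had 4 counts in replicate 1 and 2 in replicate 2, equal to 0.07 and 0.04 TPM. Exact Poisson intervals (95%, counting error only) of those counts were 1.09 to 10.2 and 0.242 to 7.22. Saa2 (ENSMUSG00000057465.4, 46751790 to 46754313, plus strand) had 1 count in each library, or 0.02 TPM. Per effective length, Saa3 exceeded Saa1 by 299 times in replicate 1 (exact counting interval 116 to 1098) and 348 times in replicate 2 (95.8 to 2878). Saa4 exceeded Saa1 by 177 times (69.2 to 651) and 393 times (109 to 3243). Saa1 and Saa2 could not be told apart in level, with counting intervals of their ratio from 0.401 to 200 in replicate 1 and from 0.105 to 120 in replicate 2.

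**Figure D2:**
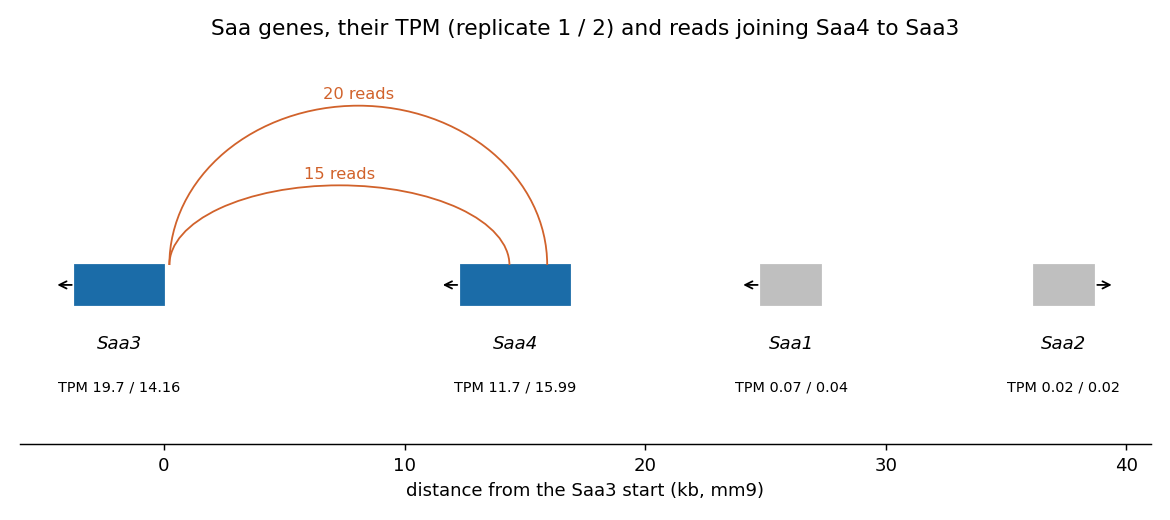
The Saa genes drawn by distance from the Saa3 start in kb on mm9, with arrows for the strand and TPM of replicates 1 and 2 below, blue for detected and grey for undetected genes. Saa3 and Saa4 lie next to each other at 11.7 to 19.7 TPM and Saa1 and Saa2 at 0.02 to 0.07 TPM, and orange arcs mark 15 and 20 reads that join Saa4 exons to sequence before Saa3.

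Neighbouring genes bounded the low pair. Hps5, a trafficking gene beyond Saa2, was at 6.10 and 6.73 TPM, and Saal1, next to Saa3, at 3.75 and 4.33 TPM. Saa1 and Saa2 were therefore lower than the genes on either side of them in both libraries.

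Saa1 and Saa2 are near-identical copies, with 348 of 366 coding bases equal (95.1%). No window of 1 read length was common to their main transcripts in GENCODE M21, so a full-length read could be placed on 1 of them. The coding stretch of 90 bases in which they differ most is shown because it carries 11 of the 18 differences, in capitals.
Saa1, coding bases 60 to 149: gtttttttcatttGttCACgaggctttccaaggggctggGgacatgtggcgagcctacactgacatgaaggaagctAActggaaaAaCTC
Saa2, coding bases 60 to 149: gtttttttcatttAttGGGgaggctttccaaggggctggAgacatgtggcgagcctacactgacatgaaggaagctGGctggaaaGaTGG
The deposited posterior SD of the Saa1 and Saa2 counts was 0 in both libraries, which means that the authors' software found no ambiguous fragments to share between them. Saa3 matched Saa1 at 79.1% and Saa4 matched Saa1 at 69.6% of aligned coding bases.

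Orosomucoids, or alpha-1-acid glycoproteins, are heavily glycosylated plasma proteins of the lipocalin family that carry small lipophilic molecules. Orm1 (ENSMUSG00000039196.2, mm10 chromosome 4, 63344560 to 63348163, plus strand, 6 exons) was the only detected member of the family. It stood at 2.71 TPM in replicate 1 and 3.48 TPM in replicate 2, from 236 and 247 counts, at rank 9414 among protein-coding genes. Orm3 (63356162 to 63359511) and Orm2 (63362449 to 63365878), both on the plus strand, had 0 counts in each library. At these depths a floor of 3 counts would equal 0.0345 TPM in replicate 1 and 0.0422 TPM in replicate 2 for Orm2. Against that floor, Orm1 was 78.7-fold higher in replicate 1 and 82.3-fold higher in replicate 2. Against the same floor for Orm3, Orm1 was 78.4-fold and 82.0-fold higher. These ratios leave out counting error and are not lower bounds. The exact Poisson upper limit of 0 counts was 3.69, and the lower limits of the Orm1 counts were 207 and 217 in replicates 1 and 2.

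The flanking genes were expressed at levels like that of Orm1. Col27a1, a fibrillar collagen gene, lay before Orm1 at 5.49 and 5.97 TPM, and Akna, a transcription regulator gene on the opposite strand beyond Orm2, was at 2.64 and 3.23 TPM.

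The Orm genes are 6-exon copies on 1 strand, and their coding sequences matched at 89.9% between Orm1 and Orm2, 86.4% between Orm1 and Orm3 and 88.3% between Orm2 and Orm3. Orm1 and Orm2 shared 45 of 675 windows of 1 read length (6.67%), and Orm3 shared none. The 90-base coding stretch with most differences between Orm1 and Orm2 is printed to show that the remaining sequence separates them, with the 20 differing bases in capitals.
Orm1, coding bases 139 to 228: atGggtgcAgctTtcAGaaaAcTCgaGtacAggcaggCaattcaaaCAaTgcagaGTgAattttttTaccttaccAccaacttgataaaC
Orm2, coding bases 139 to 228: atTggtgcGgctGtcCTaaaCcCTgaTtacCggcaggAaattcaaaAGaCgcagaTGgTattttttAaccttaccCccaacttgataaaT
The deposited posterior SD of the count was 0.05 for Orm1 and for Orm2 in replicate 2 and 0 in replicate 1. Reads were thus assigned to Orm1 almost without ambiguity.

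Promoter sequences of high and low members were compared next. RefSeq sequences (GRCm38.p6, 250 bases before to 50 after the start) were found for 8 of the 10 genes: Saa1, Saa2, Saa3, Saa4, Orm2, Orm3, Crp and Apcs. They were searched on both strands for a C/EBP-type motif (TTGCNNAA, also read as TTNNGCAA), a TATA box (TATAAA), a STAT-type motif (TTCNNNGAA), the NF-kB-type motif and an HNF1-type motif (GTTAAT). The C/EBP-type and STAT-type motifs are of the kind bound by the factors that interleukin 6 activates. The bases before the start are shown with all matches in capitals. They belong to a near-identical, almost absent pair (Saa1 and Saa2), an orosomucoid with 0 counts (Orm2), a gene of low level (Saa3) and both high pentraxins. Each window ends before the more upstream of the RefSeq and GENCODE starts. This leaves out 43 bases before the RefSeq start for Saa2, 24 for Saa3 and 1 for Crp. Motif positions given below count from the RefSeq start.
Saa1, 250 bases, chr7:46742981-46743230, minus strand: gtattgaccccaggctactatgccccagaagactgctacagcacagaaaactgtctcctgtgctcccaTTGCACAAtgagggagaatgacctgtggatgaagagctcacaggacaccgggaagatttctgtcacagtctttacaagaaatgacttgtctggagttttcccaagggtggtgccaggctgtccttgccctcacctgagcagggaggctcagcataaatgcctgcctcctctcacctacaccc
Saa2, 207 bases, chr7:46751583-46751789, plus strand: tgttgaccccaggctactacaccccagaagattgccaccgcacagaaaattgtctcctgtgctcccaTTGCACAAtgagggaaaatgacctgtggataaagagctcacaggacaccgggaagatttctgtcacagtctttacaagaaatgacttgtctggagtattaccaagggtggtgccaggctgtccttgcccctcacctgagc
Orm2, 250 bases, chr4:63362199-63362448, plus strand: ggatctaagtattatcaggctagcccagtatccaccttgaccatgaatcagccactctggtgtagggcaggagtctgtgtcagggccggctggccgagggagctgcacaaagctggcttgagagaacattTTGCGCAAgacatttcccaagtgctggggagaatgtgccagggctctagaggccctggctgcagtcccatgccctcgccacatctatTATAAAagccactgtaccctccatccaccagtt
Saa3, 226 bases, chr7:46715701-46715926, minus strand: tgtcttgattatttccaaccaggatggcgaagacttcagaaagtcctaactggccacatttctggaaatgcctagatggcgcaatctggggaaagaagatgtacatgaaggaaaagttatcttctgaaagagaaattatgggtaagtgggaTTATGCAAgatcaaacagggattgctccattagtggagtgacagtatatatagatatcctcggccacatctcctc
Crp, 249 bases, chr1:172697806-172698054, plus strand: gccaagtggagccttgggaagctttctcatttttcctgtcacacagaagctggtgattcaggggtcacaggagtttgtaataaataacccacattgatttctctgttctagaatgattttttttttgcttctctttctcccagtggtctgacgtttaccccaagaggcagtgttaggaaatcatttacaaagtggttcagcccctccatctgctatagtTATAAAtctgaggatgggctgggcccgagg
Apcs, 250 bases, chr1:172895055-172895304, minus strand: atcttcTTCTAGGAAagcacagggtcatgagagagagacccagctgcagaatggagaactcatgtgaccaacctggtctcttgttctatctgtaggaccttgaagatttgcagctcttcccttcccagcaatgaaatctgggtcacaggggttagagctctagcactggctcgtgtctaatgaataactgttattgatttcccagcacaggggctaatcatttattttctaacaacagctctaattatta

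The C/EBP-type motif was in 6 of the 8 promoters and in 10.8% of all 32851 promoters in the table. Those 6 were the Saa and Orm promoters, from TTGCACAA at positions -182 to -175 of Saa1 to TTATGCAA at -99 to -92 of Saa3 and TTGCGCAA at -120 to -113 of Orm2. Neither Crp nor Apcs, the high members with a promoter sequence, held it. A TATA box was in 3 of 8 (Orm2, Orm3 and Crp) against 13.6% of all promoters, each time starting between positions -33 and -29. The STAT-type motif was in Apcs alone (TTCTAGGAA at -244 to -236) against 8.30% of all promoters. No member promoter held the letters searched for the NF-kB-type motif (1.63% of all) or the HNF1-type motif (7.10% of all). A match is a description of the letters. Over the 250 bases before the RefSeq start, Saa1 and Saa2 were equal at 238 of 249 aligned bases (95.6%) and Orm2 and Orm3 at 218 of 245 (89.0%).

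Most receptor and signalling genes of the response were detected. Of 27 such genes, 23 reached a mean of 1 TPM, against the same 29.0% of all mouse genes, and the median of the 27 was 9.07 TPM. Il6ra, the interleukin 6 receptor, was at 3.95 and 4.80 TPM, and Il6st, its signalling chain, at 7.03 and 7.81 TPM. Stat3, the factor they activate, was at 29.3 and 35.5 TPM, and its feedback target Socs3 at 6.43 and 6.79 TPM. The interleukin 1 receptor genes Il1r1 (7.33 and 10.8 TPM) and Il1rap (11.9 and 10.5 TPM) were detected too.

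Transcription factor genes of the response were among the highest of that list. Cebpa stood at 81.0 and 104 TPM, Cebpb at 38.0 and 37.1 TPM and Cebpd at 21.5 and 28.6 TPM. The NF-kB subunit genes Nfkb1 (17.1 and 18.5 TPM) and Rela (12.8 and 13.7 TPM) were lower. Of the ligands, Il6 was at 0.08 and 0.17 TPM from 11 and 19 counts, Il1b at 0.46 and 1.27 TPM, Tnf at 1.24 and 1.25 TPM and Il1a at 3.80 and 5.20 TPM. Each of these 4 ligand genes was below the C/EBP and NF-kB genes just named in both libraries. The ligand gene Osm (1.16 and 1.40 TPM) was above its receptor gene Osmr (0.75 and 0.74 TPM).

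By median, other positive acute phase genes stood far above the 10. Their lowest mean, 12.8 TPM, was nonetheless below the means of Apcs, Crp, Lbp, Saa3 and Saa4. All 24 listed genes reached a mean of 1 TPM (29.0% of all mouse genes did), with a median of 455 TPM against 8.47 TPM for the 10 genes and 0.005 TPM over all mouse genes. The fibrinogen chains Fgg (4193 and 4674 TPM), Fgb (3112 and 3633 TPM) and Fga (3153 and 3455 TPM) led them, with the metal-binding gene Mt1 (1166 and 3181 TPM) and the complement gene C3 (1599 and 1904 TPM). The 10 negative acute phase genes, whose plasma proteins fall during the response, had a median of 6017 TPM and were led by Alb. Apcs was thus the only one of the 10 genes above the median of the other positive genes.

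**Figure D3:**
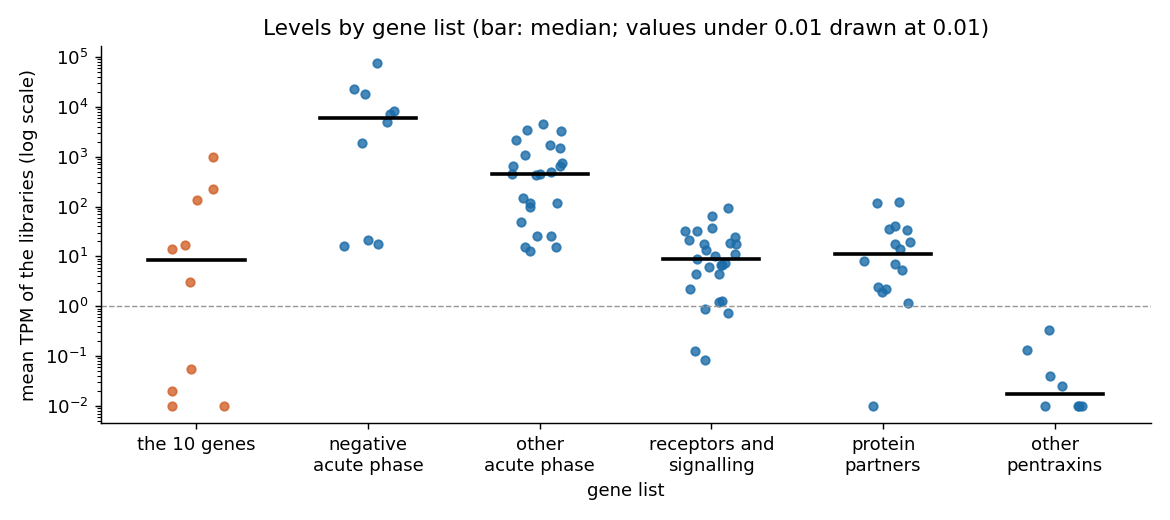
Mean TPM of the libraries on a log axis for each gene of the set (orange) and of 5 gene lists (blue), with black bars at the medians. The 10 genes spread from 0 to 965 TPM around a median of 8.47 TPM, while all 24 other acute phase genes lie above the dashed line at 1 TPM.

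The libraries were then set against each other for the 6 genes with a mean count of at least 50. Counts were scaled by TMM, a method that centres most genes on no difference, and differences are log2 ratios of replicate 2 over replicate 1. None of the 6 was 2-fold apart, where 1.82% of 14956 genes were. At 1.5-fold 1 of the 6, Saa3, was, where 5.71% of genes were. That call held with DESeq2 size factors (-0.62) and ended with the total count (-0.57), the TPM ratio (-0.48), the FPKM ratio (-0.52) and the spike-in total (-0.09), settings added for this fold after seeing the data. On the spike-in scale Saa4 (0.88) and Orm1 (0.77) were past 1.5-fold.

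Saa3 gave the largest difference of the 6, with a log2 ratio of -0.62 (exact counting interval -0.78 to -0.47), a level 1.54-fold higher in replicate 1. Of the genes tested, 5.07% were at least as far apart. Saa4 went the other way, at 0.34 (0.27 to 0.41). Apcs was at -0.30 (-0.31 to -0.29) and Crp at -0.10 (-0.11 to -0.08). Lbp was level at 0.00 (-0.02 to 0.02), and Orm1, at 0.23, had an interval that held 0 (-0.03 to 0.49). These intervals cover counting error only and not the spread between animals, which 1 library on each side cannot give. The libraries also differed in Xist and Ddx3y, so a difference between replicates cannot be told apart from a difference of sex.

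Scaling by the spike-in total moved the median of all genes to 0.54, and because this shifts every gene alike the order of the 6 genes was unchanged, with Saa3 at -0.09 and Saa4 at 0.88. The sign of Apcs (0.24) and of Crp (0.44) turned on that scale, and Crp was at 0.02 as a ratio of TPM. Some sets of cell type markers moved one way between the libraries on the TMM scale, and others did not. Of the 10 hepatocyte markers, 6 were higher in replicate 2 and 4 were lower (median log2 ratio 0.03). Of the 6 endothelial markers, 3 were higher and 3 lower (median -0.004). Macrophage markers did not move one way: 5 of 12 were higher in replicate 2, with Clec4f at -1.05 and Marco at 1.00. The 9 pancreatic markers with a mean count of at least 10 were all higher in replicate 1, as was Saa3. On the TMM scale the 8 erythroid markers were all higher in replicate 1 too (median log2 ratio -0.21, sums of 224782 and 218614 TPM), as were Apcs and Crp. By TPM, however, Hba-a2 (87860 and 92297), Alas2 (473 and 474) and Slc4a1 (263 and 268) were higher in replicate 2. The other erythroid markers stayed higher in replicate 1 by TPM. Of the 5 gut epithelium markers, 3 had a mean count of at least 10, and all 3 were higher in replicate 1 (median log2 ratio -0.18). Only 1 of the 5 reached a mean of 1 TPM. The 12 neutrophil markers were higher in replicate 2, as were Saa4 and Orm1. The part of these cells in the differences of Saa3, Saa4, Orm1, Apcs and Crp was not tested. Of the 9 adipocyte and stromal markers, 7 reached a mean of 1 TPM, and their sum was 216 TPM in replicate 1 and 230 TPM in replicate 2. Fabp4 was at 72.5 and 74.1 TPM, while the defining adipocyte genes Adipoq (7 and 1 counts) and Plin1 (0 and 0 counts) were at or near 0.

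**Figure D4:**
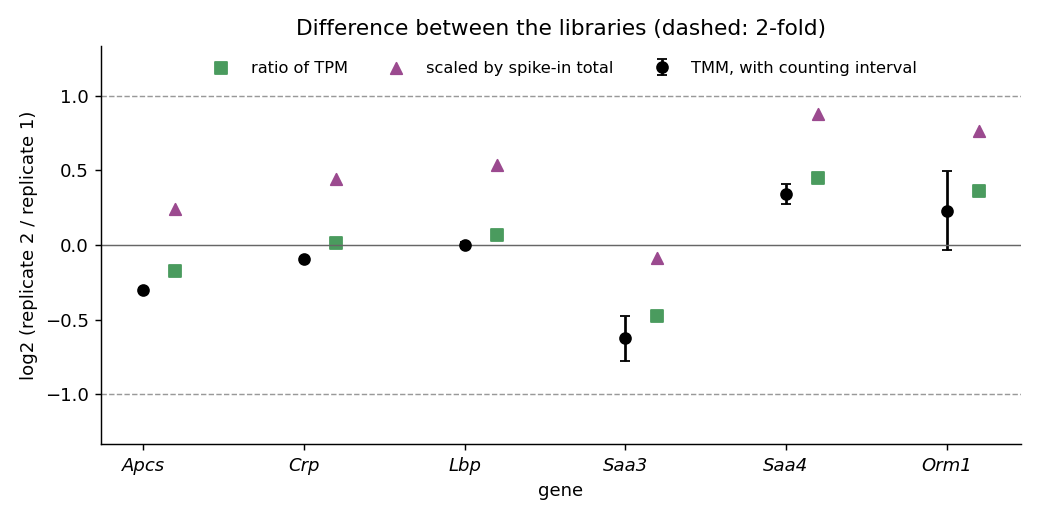
log2 ratio of replicate 2 over replicate 1 for the 6 genes with a mean count of at least 50: TMM-scaled counts with exact counting intervals (black), the ratio of TPM (green squares) and spike-in scaling (purple triangles). No point passes the dashed 2-fold lines, and Saa3 (-0.62) and Saa4 (0.34) lie on opposite sides of 0 on the TMM scale.

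Of the other acute phase genes, all with a mean count of at least 10, 4 of 24 were at least 2-fold apart, where 4.40% of 17616 genes were: Mt1 (1.30) and Mt2 (1.17) were higher in replicate 2, and Serpina3k (-1.06) and Serpina3m (-1.05) were higher in replicate 1. Their median log2 ratio was -0.11, against -0.05 for the 6 genes of the set and 0.00 over all genes. Among the 27 receptor and signalling genes, Il1b (1.31, from 81 and 180 counts) was the only one that far apart.

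Transcripts were examined for each member. Saa1, Saa2, Saa3, Saa4, Orm1 and Apcs had 1 transcript in the tables. The 2-exon transcript Crp-201 took 99.8% of Crp's TPM in both libraries. The noncoding Crp-202, which runs far beyond the gene across an intron of 133082 nt, took 0.24% (0.53 and 0.55 TPM), and no listed mm9 junction at Crp had an intron of that length.

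By TPM, Lbp was the only member with a sizeable second transcript. Its full-length form Lbp-201 took 71.1% of the TPM in replicate 1 and 72.8% in replicate 2 (72.0% ± 1.20, SD, n = 2). The short form Lbp-203, of 436 nt, took 25.8% and 22.6% (24.2% ± 2.25). By expected counts, however, Lbp-203 held 3.28% and 2.68% of the gene's reads, since its effective length was 221 and 211 nt against 2310 and 2300 nt for Lbp-201. The splice junction list gives a separate measure. An annotated junction that skips to a site inside exon 10 was taken as that of Lbp-203, without a check of the exons of each transcript. That junction had 147 reads against 5967 for the full-length junction from the same donor, a share of 2.40% (exact binomial 95% interval 2.04 to 2.82, both replicates together). The share of Lbp-203 was thus 24.2% of TPM on average but 2.40% when read from the junction taken as its own. Like TPM and unlike counts, a share of reads from 1 donor does not grow with transcript length. It therefore compares with the share of TPM and not with that of counts. The cause of the difference was not tested.

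**Figure D5:**
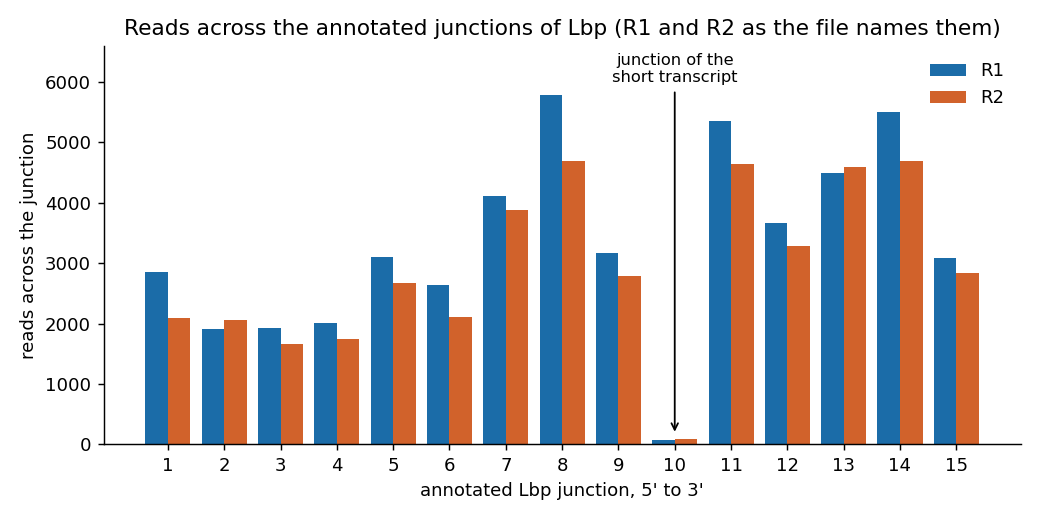
Reads across the 15 annotated Lbp junctions of the mm9 list, ordered along the gene, for the values the file names R1 (blue) and R2 (orange). The tenth bar pair is the junction taken as that of the short transcript Lbp-203, at 64 and 83 reads. The other 14 hold at least 3586 reads each with R1 and R2 together.

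Junction reads on the mm9 build, in which both replicates share a file, covered the same members. The Apcs junction had 26926 reads and the Crp junction 4256. The 3 Saa3 junctions had 638, 759 and 1376 reads, and the 3 Saa4 junctions 249, 884 and 713. The 5 Orm1 junctions had 79 to 114 reads each. Saa1 had 2 reads and Saa2 had 1 read over an annotated junction, and Orm2 and Orm3 had none. The 6 detected genes thus had from 79 to 26926 reads at each annotated junction listed, and the others at most 2.

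Unannotated alternative splice sites were also listed, and those of Saa3 and Crp, chosen after their values were seen, are given as examples. An acceptor 3 bases inside exon 2 of Saa3 had 31 reads, or 2.20% of both sites (exact binomial interval 1.502 to 3.113). An acceptor 32 bases inside exon 2 of Crp had 42 reads, or 0.977% (0.705 to 1.32). Lbp also had an unannotated donor 17 bases inside an exon, with 47 reads, and Apcs an unannotated junction with 30 reads.

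For the same junctions, the file's R2 over R1, scaled by all junction reads, gave a log2 ratio of -0.47 for Saa3 and 0.26 for Saa4, on the same sides of 0 as the gene counts. Apcs was at -0.27 and Lbp at 0.07. Crp was at -0.47 (exact counting interval -0.56 to -0.38), farther from 0 than the -0.10 of its gene counts. Which library R1 and R2 stand for is given only by the digit.

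Contigs, the authors' stretches of stranded coverage on mm9, gave the coverage of introns. They covered 100% of the introns of Crp and Apcs, 98.9% of Lbp, 89.3% of Orm1, 88.2% of Saa4 and 70.9% of Saa3. No contig lay on the strand of Orm2 or Orm3, while contigs on the opposite strand covered 31.9% and 26.1% of these genes with signals of at most 0.044 and 0.031. For scale, the highest contig of Apcs had a signal of 257, that of Saa4 12.5 and that of Orm1 1.77. On the strand of the genes, the junction list held 3 reads from Orm1 exon 1 to an annotated Orm2 exon start, all in R1. It also held 1 read, in R2, from an Orm1 exon to an annotated Orm3 exon start. The coding sequences of these genes are alike, and whether these reads were placed on the wrong copy was not tested.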

How the data were processed

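Poly(A)+ RNA of 2 E18 liver libraries was analysed. Per the file headers, the authors deposited for each library, on mm10 with GENCODE M4, an expected count per gene and transcript, TPM and FPKM values with posterior means, SDs and credibility intervals, and the percent of a gene's TPM in each transcript. The deposited mm9 tables (ENSEMBL 65) hold both replicates: RPKM per gene, a whole read count per splice junction, and a signal per contig. The scale of that signal, the aligner and the quantifier: not given in the sources used here.

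Here, symbols and positions came from GENCODE M21 by identifier, and 42462 of 43346 mouse identifiers matched. Coordinates are 1-based, except that junctions are matched as the file gives them, and none was converted between builds. Spike-ins (2.79% and 2.01% of counts), phiX and numbered short entries were left out of library sizes. Expected counts were rounded and scaled by TMM (edgeR 4.0.16, R 4.3.3), and 0.5 was added to the scaled counts. DESeq2 1.42.0 size factors were an alternative. The ratio step was tested on simulated data. Intervals are exact Clopper-Pearson or Poisson intervals at 95% and cover counting error only. Promoters came from RefSeq, GRCm38.p6, and coding sequences from GENCODE M21, aligned with Biopython 1.88. The labels do not say whether the replicates share animals. Xist was at 99.1 and 0.02 TPM and Ddx3y at 0 and 13.6 TPM in replicates 1 and 2. The libraries thus did not hold the same mix of sexes, and their spread is not that of technical repeats alone. A difference between replicates cannot be told apart from a difference of sex.

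The genes of the set, the gene lists and the settings were chosen with earlier results of these data known. The text names the 10 genes, up to 5 genes of each list by mean TPM, any receptor or signalling gene, and the nearest neighbours. Other named genes (among them Fcgr1, Fcgr2b, Cd14, Tlr4, Ly96, Ptx3, Mptx2, Mt2, Serpina3k, Serpina3m, Clec4f, Marco, Adipoq and Plin1) were chosen after their values were seen.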

Additional observations from a re-analysis of the deposited data

Results flagged for a closer look

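The mm9 junction list holds 35 reads that join Saa4 to sequence just before Saa3 on the same strand, which no value of the gene tables shows. They lie on 2 unannotated junctions with canonical splice sites that share an acceptor on chromosome 7 at 53971274, beyond the mm9 Saa3 start at 53971046. From the end of Saa4 exon 3 there were 15 reads (R1 5, R2 10), or 5.68% of that donor's reads counted with the annotated junction (exact binomial 95% interval 3.21 to 9.20). From the end of exon 2 there were 20 reads (R1 5, R2 15), or 2.21% (1.36 to 3.40). A further unannotated junction, with 4 reads, runs from 53971155 to Saa3 exon 2 at 53970474.

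The same list holds 26 reads that join Crp exon 1 to 4 sites beyond the end of the mm9 gene, with 6, 10, 6 and 4 reads, where the annotated junction from that donor had 4256. Neither group of reads was followed further here.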

How the results depend on the processing

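Of 54 alternative values of the main results, 40 stayed within the spread between replicates or within 1.5 times the count. Some of the 40 could not have moved. For shares and ratios, the value from 1 of 2 replicates always lies within their SD of the mean. FPKM is proportional to TPM within a library, so its shares and ratios repeat those of TPM. The 6 genes detected became 5 at 5 TPM and stayed 6 under the other settings. No member was 2-fold apart under any scaling or filter with a fold of 2, and 1 (Saa3) was at 1.5-fold with TMM. At 1.5-fold, in settings chosen after seeing the data, the count was 1 with DESeq2 size factors, 0 with the total count, the TPM ratio or the FPKM ratio, and 2 (Saa4 and Orm1) with the spike-in total. The summed share was 0.127% when taken over counts of mouse genes. Without length scaling the ratio of Apcs to Crp was 2.19, of Lbp to Apcs 0.328, of Crp to Lbp 1.40, of Saa3 to Saa4 0.224 and of Saa3 to Orm1 3.18. By mm9 RPKM the ratio of Apcs to Crp was 3.65, of Lbp to Apcs 0.174 and of Saa3 to Saa4 0.687, so Saa4 stood above Saa3 there; the cause was not tested. Leaving out each replicate in turn gave 0.130% to 0.141% for the summed share, 4.01 to 4.59 for Apcs to Crp, 0.128 to 0.151 for Lbp to Apcs, 1.65 to 1.70 for Crp to Lbp, 0.886 to 1.68 for Saa3 to Saa4 and 4.07 to 7.27 for Saa3 to Orm1. Depth limits Saa1, Saa2, Orm2 and Orm3, at 4 counts or fewer, to bounds. No paired analysis was possible because there is 1 group.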

Other observations

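The mm9 gene table gives an RPKM1 and an RPKM2 for each gene, and the replicate behind each is given only by the digit. For the members, Apcs had an RPKM1 of 168 and an RPKM2 of 197, Saa3 1.77 and 2.57, Saa4 3.86 and 2.81, Lbp 37.0 and 25.0, and Orm1 0.487 and 0.397. Each of these 5 differed in the opposite direction to its mm10 TPM in replicates 1 and 2. Crp, at 49.2 and 50.7 RPKM against 223 and 226 TPM, differed slightly in the same direction. Xist had an RPKM1 of 0.0362 and an RPKM2 of 27.0, where its TPM was 99.1 in replicate 1 and 0.02 in replicate 2. Ddx3y had 2.42 and 0.000333, where its TPM was 0 and 13.6, and the pancreatic gene Ctrb1 had 0.0411 and 5.32, where its TPM was 35.7 and 0.22. Across the 5573 genes whose mean TPM was 10 or higher, the log2 ratio of RPKM2 over RPKM1 and that of TPM in replicate 2 over replicate 1 had a Spearman rho of -0.51, a description over genes that share the same libraries. Of 38 such genes at least 2-fold apart in TPM, 35 were apart in the opposite direction by RPKM. The number in RPKM1 and RPKM2 was therefore not used to assign any value to a replicate, and those values were averaged or given as pairs.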
